A study of Mus musculus with 32 samples.

Results

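The genes of cholesterol synthesis examined here were Hmgcs1, Idi1, Fdps, Fdft1, Sqle, Cyp51 and Insig1, which were taken by gene symbol from a table of counts. They were 7 of the 33000 genes in that table. Expression was measured by 3'Pool-seq, in which the primer of the reverse transcription carries a sample index beside an oligo-dT stretch, samples are pooled directly afterwards, and reads come from the 3' ends of polyadenylated transcripts. The RNA came from frontal cortex of 3-month-old C57BL/6 mice that were either wild-type (WT) or homozygous for the GFAP-IL6 transgene, which places interleukin 6 under the promoter of the astrocyte gene Gfap. For both genotypes, 4 numbered replicates were made into libraries from 50, 10, 1 and 0.5 ng of total RNA, which gave 8 groups of 4 and 32 libraries. No other allele or agent was given, and the labels do not say whether a replicate number marks an animal. The p-values therefore measure the spread between these libraries, which may be partly technical.

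Cholesterol is built from acetyl-CoA through mevalonate, isoprenoids, squalene and lanosterol, and hardly any crosses from the blood into the brain, so that brain cells make their own. Oligodendrocytes need it for myelin, and astrocytes are known to export it to neurons on ApoE particles. The genes of the route are known targets of the transcription factor SREBP2, which the escort protein SCAP carries from the endoplasmic reticulum to the Golgi for cleavage when sterols are low. INSIG1 holds SCAP back when sterols are high, and its gene is itself an SREBP target. Of the 7 genes, 6 therefore encode enzymes of the route and Insig1 encodes a regulator of it.

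Total counts ran from 261378 to 9840302 per library, and in each of the 8 groups replicate 2 had the lowest total. Levels are given as CPM, the counts of a gene scaled to the total of its library, and are not scaled for gene length. A count of 3, taken as the lowest level a library could show, was worth 0.305 to 11.5 CPM depending on the library. Il6 itself was counted 4 to 22 times in the GFAP-IL6 libraries and 0 to 1 times in the WT libraries at 50 ng. At 10 ng it had 2, 0, 3 and 0 counts in WT and 41, 2, 27 and 20 in GFAP-IL6, and in CPM every GFAP-IL6 library lay above every WT library. At 1 ng it did not follow the labels, with 0, 0, 13 and 0 counts in the libraries labelled WT 1 to 4 and 27, 0, 0 and 10 in those labelled GFAP-IL6 1 to 4, and none of the 8 libraries with 0.5 ng held a count of it, so that the labels could not be checked there. Markers of oligodendrocytes, astrocytes and neurons were present in both genotypes.

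In GENCODE annotation of the mouse build GRCm38, all 7 are protein-coding genes. Hmgcs1 lies at chr13:119690379-119708260 on the plus strand, Idi1 at chr13:8885501-8892451 (plus), Fdps at chr3:89093588-89101959 (minus), Fdft1 at chr14:63145150-63179578 (minus), Sqle at chr15:59315077-59331192 (plus), Cyp51 at chr5:4081145-4104746 (minus) and Insig1 at chr5:28071363-28078662 (plus). Fdft1 shares 774 exonic bases with Ctsb, and Cyp51 shares 166 with Akap9, in both cases on opposite strands. Since the use of strand in counting was not given, reads from these stretches cannot be assigned with certainty. Fdps shares 1124 exonic bases with a gene model on its own strand, Gm43738, which had 0 counts in all 32 libraries. The part of these overlaps in the measured levels was not tested.

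Promoters are shown because they carry the letters that SREBP and its partner factors are known to read, and because Hmgcs1, Insig1 and Cyp51 are an early enzyme, the regulator and a late enzyme of the route. RefSeq windows of 250 bases directly before the start site (GRCm38.p6) were found for 4 of the 7 genes, Idi1 being the fourth, and not for Sqle, Fdft1 and Fdps. Capitals mark 4 motifs searched on both strands, namely the sterol regulatory element TCACNCCAC, the E-box CACGTG, the CCAAT box CCAAT and the GC box GGGCGG, none of which overlap each other in these windows. The windows are at chr13:119690101-119690350 (plus strand) for Hmgcs1, chr5:28071162-28071411 (plus) for Insig1 and chr5:4104698-4104947 (minus) for Cyp51, written 5' to 3'.
Hmgcs1: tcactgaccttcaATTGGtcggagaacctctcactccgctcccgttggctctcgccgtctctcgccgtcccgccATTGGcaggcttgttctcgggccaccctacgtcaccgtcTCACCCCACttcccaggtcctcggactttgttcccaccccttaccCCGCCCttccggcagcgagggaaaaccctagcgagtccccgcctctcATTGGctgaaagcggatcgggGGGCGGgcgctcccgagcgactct
Insig1: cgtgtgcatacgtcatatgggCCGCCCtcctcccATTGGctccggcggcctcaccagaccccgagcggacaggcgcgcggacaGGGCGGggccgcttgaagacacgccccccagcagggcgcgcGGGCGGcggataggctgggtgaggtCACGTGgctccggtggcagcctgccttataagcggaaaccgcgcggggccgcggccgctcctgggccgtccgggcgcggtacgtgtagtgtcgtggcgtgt
Cyp51: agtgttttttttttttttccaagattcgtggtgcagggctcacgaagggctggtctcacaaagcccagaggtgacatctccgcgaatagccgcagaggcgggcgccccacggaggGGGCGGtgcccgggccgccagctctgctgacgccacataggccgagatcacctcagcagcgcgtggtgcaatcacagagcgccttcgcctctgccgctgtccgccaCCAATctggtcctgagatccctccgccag

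In the exact letters searched, the sterol regulatory element was found in the Hmgcs1 window alone among the 4, from 137 to 129 bases before the start. Of 32851 windows of all genes, 1.05% held it. Other spellings of the element were not searched, so a window without a match may still hold one. The E-box was found in the Insig1 window alone, and 6.02% of all windows held it. A CCAAT box and a GC box were each found in 4 of 4 windows, against 33.8% and 32.7% of all windows. Among 16 windows of 13 other sterol synthesis enzymes, 12 held a CCAAT box, 13 a GC box and 0 the sterol regulatory element in these exact letters. A match is a match of letters only and says nothing of binding in this tissue.

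The comparison of genotypes asked whether interleukin 6 in the cortex went with another level of the sterol route. None of the members that could be tested passed the test of genotype at any amount of RNA, where passing means a Benjamini-Hochberg adjusted p under 0.05 in edgeR's quasi-likelihood test over all genes. At 50 ng, 0 of the 6 members tested passed, where 0.28% of 11773 genes did, and 0 of 6 had an unadjusted p under 0.05, where 5.63% of genes did. At 10 ng, 0 of 6 passed, where 0.332% of 12043 genes did, and 0 of 6 were under 0.05 unadjusted, where 7.48% were. DESeq2 passed 0 members at either amount as well. Idi1 was not tested at any amount because its counts were too low for the expression filter. The 6 estimates at 50 ng lay below 0, from -0.41 to -0.06 on the log2 scale with a median of -0.14, where 50.4% of all genes lay below 0 and the median over all genes was -0.0034. At 10 ng, the 6 estimates also lay below 0, from -0.39 to -0.06 with a median of -0.22, where 49.6% of all genes did. As bulk tissue was used, fewer cells of a type and less RNA per cell cannot be told apart.

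**Figure D1:**
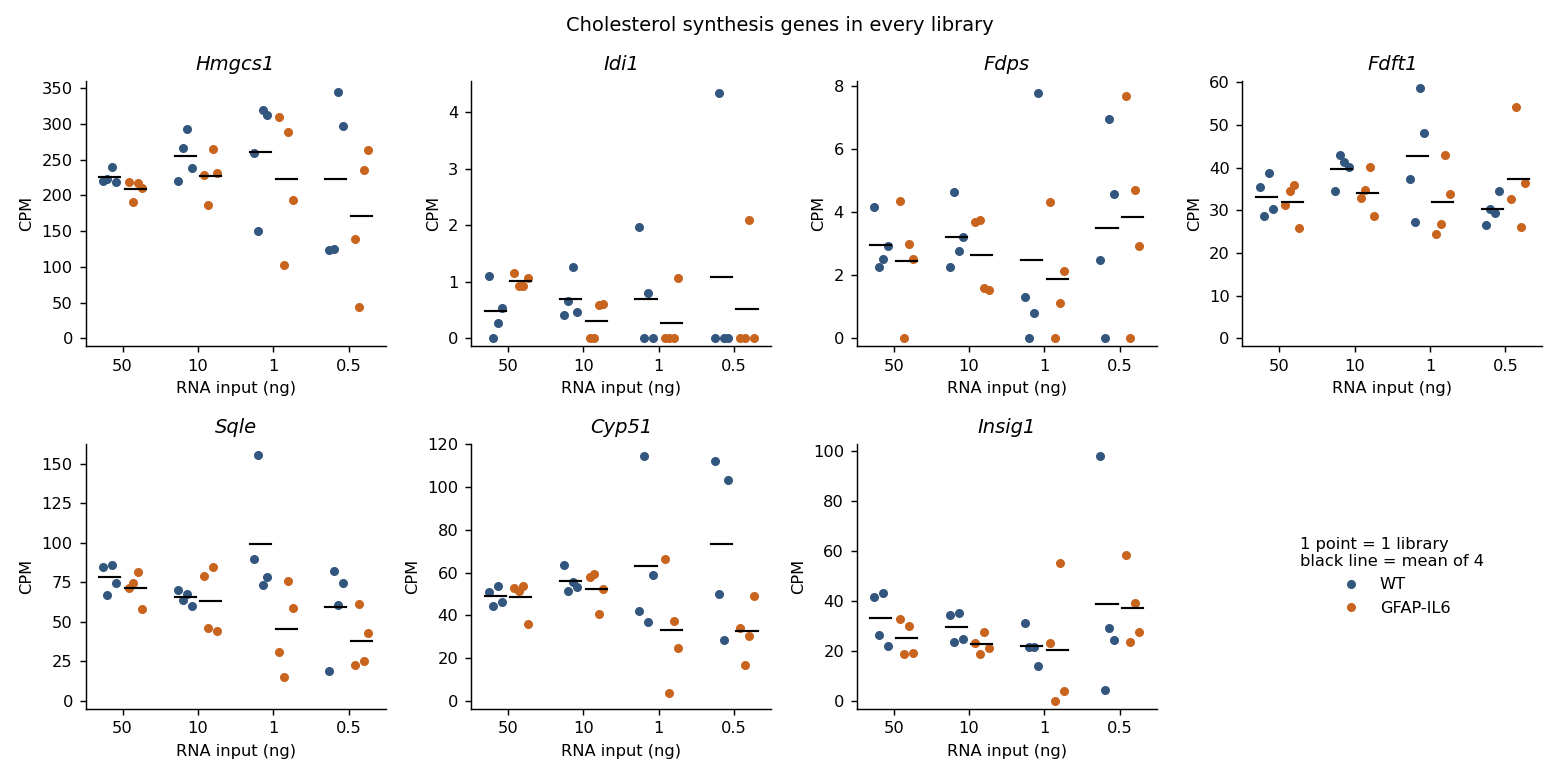
Level of each gene in every library, in CPM on a linear axis (vertical) against the amount of RNA in ng (horizontal); points are libraries, blue for WT and orange for GFAP-IL6, and black lines are means of 4. The WT and GFAP-IL6 points overlap for every gene and amount, and their spread at 1 and 0.5 ng is wider than at 50 ng.

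Hmgcs1, which encodes the cytosolic HMG-CoA synthase at the entry to the mevalonate route, had 204 to 1650 counts per library at 50 ng and was the most precisely measured member there. Its level at 50 ng was 220, 223, 240 and 219 CPM in WT replicates 1 to 4 and 219, 190, 217 and 211 CPM in GFAP-IL6. Of the 4 GFAP-IL6 libraries, 3 lay below every WT library, but the groups overlapped by the remaining library. The means were 225 ± 9.72 CPM in WT and 209 ± 13.3 CPM in GFAP-IL6 (SD, n = 4). On the log2 scale the difference was -0.14 ± 0.15 (SE) at 50 ng and -0.18 ± 0.14 at 10 ng (edgeR adjusted p = 0.863 and 0.791). The 95% interval at 50 ng ran from 0.732 to 1.13 times the WT level, so a larger drop lay outside it.

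Idi1, the isomerase that turns isopentenyl diphosphate into the primer of isoprenoid chains, was close to the limit of counting. It had 0 to 6 counts in each library and 58 counts over all 32, and its neighbour and close copy Idi2 had 59. At 50 ng its counts were 4, 0, 1 and 4 in WT and 4, 1, 4 and 6 in GFAP-IL6, all at or under 1.16 CPM. At this depth no difference in Idi1 was detectable. Fdps, which joins isoprenoid units into farnesyl diphosphate, was also thinly counted, with 0 to 27 counts per library. Its level at 50 ng was 4.15, 2.26, 2.50 and 2.92 CPM in WT and 4.34, 0, 3.00 and 2.51 CPM in GFAP-IL6, where the library at 0 was the shallowest of the group with 1071895 counts in all. The groups overlapped, and the log2 fold change of -0.14 ± 0.48 (SE, edgeR adjusted p = 0.958) had an interval from 0.454 to 1.80 times the WT level.

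Fdft1 encodes squalene synthase, the step that commits the route to sterols. Its level at 50 ng was 35.4, 28.6, 38.7 and 30.2 CPM in WT and 31.3, 34.5, 36.0 and 26.0 CPM in GFAP-IL6, and the groups overlapped. At 10 ng it was 34.6, 42.9, 41.4 and 40.2 CPM in WT and 33.0, 34.8, 40.3 and 28.7 CPM in GFAP-IL6, where the low WT library lay within the range of the GFAP-IL6 libraries. The log2 fold change was -0.11 ± 0.20 at 50 ng and -0.25 ± 0.21 at 10 ng (SE, edgeR adjusted p = 0.912 and 0.806).

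Sqle encodes squalene epoxidase, a slow step of the route. Its level at 50 ng was 85.0, 66.9, 86.3 and 74.6 CPM in WT and 71.3, 74.6, 81.6 and 57.9 CPM in GFAP-IL6, and the groups overlapped. At 10 ng the WT libraries stood close together, at 70.1, 64.1, 67.7 and 60.2 CPM, and the GFAP-IL6 libraries lay on both sides of them, at 79.0, 46.0, 84.9 and 44.2 CPM. GFAP-IL6 over WT, the log2 fold change was -0.18 ± 0.17 at 50 ng and -0.06 ± 0.19 at 10 ng (SE, edgeR adjusted p = 0.844 and 0.955). Cyp51 encodes lanosterol demethylase, the cytochrome P450 of the late route. Its level at 50 ng was 50.9, 44.4, 53.7 and 46.4 CPM in WT and 52.7, 51.3, 54.0 and 36.2 CPM in GFAP-IL6. Of the GFAP-IL6 libraries, 3 lay between 51.3 and 54.0 CPM, within or just above the WT range, and replicate 4 lay below it. The estimate was -0.06 ± 0.19 (SE, edgeR adjusted p = 0.954). Without that library it was 0.09.

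Insig1, the regulator, had the lowest estimate of the 6 tested genes at both amounts. Its level at 50 ng was 41.8, 26.3, 43.1 and 22.0 CPM in WT and 33.0, 18.7, 30.0 and 19.4 CPM in GFAP-IL6. At 10 ng it was 34.6, 23.8, 35.4 and 24.7 CPM in WT and 23.1, 18.8, 27.8 and 21.4 CPM in GFAP-IL6. At 50 ng 2 of the GFAP-IL6 libraries and at 10 ng 3 of them lay below every WT library, and the groups overlapped at both. In WT, replicates 1 and 3 stood well above replicates 2 and 4 at both amounts. The means at 50 ng were 33.3 ± 10.7 CPM in WT and 25.2 ± 7.32 CPM in GFAP-IL6 (SD, n = 4), and the log2 fold change was -0.41 ± 0.25 (SE, edgeR adjusted p = 0.835). At 10 ng it was -0.39 ± 0.23 (SE, edgeR adjusted p = 0.736).

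**Figure D2:**
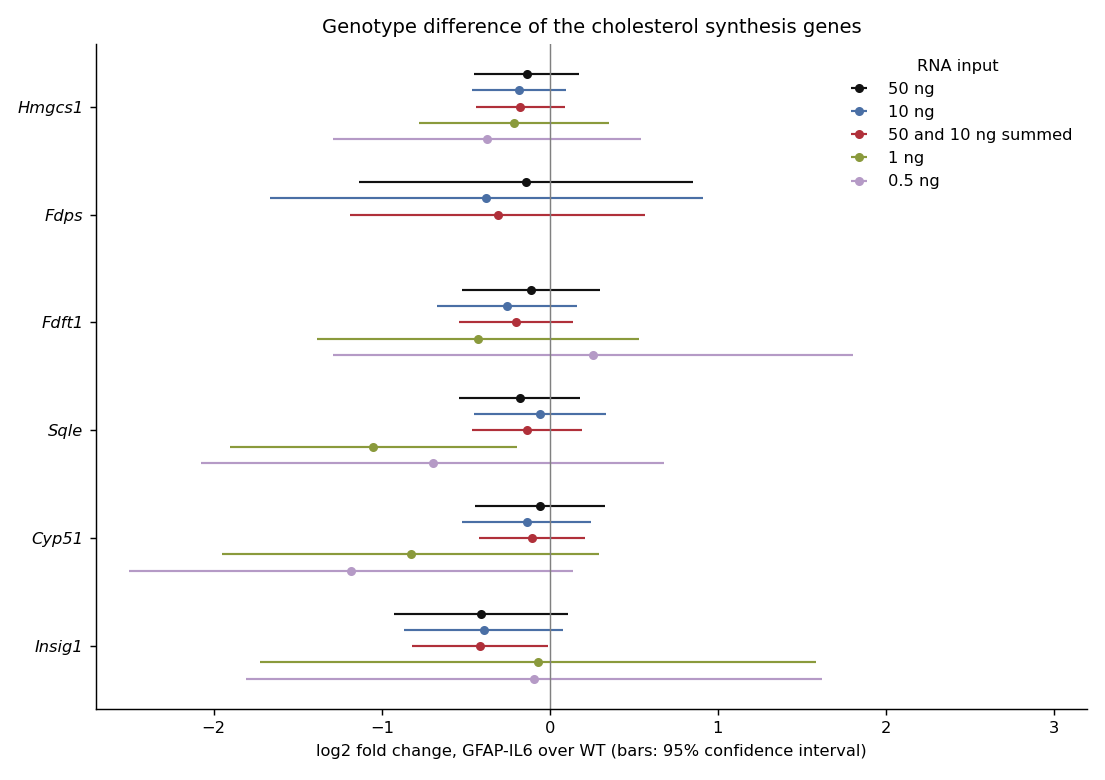
Log2 fold change of GFAP-IL6 over WT (horizontal) for the 6 genes that could be tested (vertical), with 1 point and 95% confidence interval for each amount of RNA and for the 50 and 10 ng counts summed. The estimates at 50 and 10 ng lie left of 0 with intervals that cover 0, the summed Insig1 interval ends just below 0, and the intervals at 1 and 0.5 ng are wider.

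To lower the counting error, the counts of the 50 and 10 ng libraries with the same genotype and number were added, which made 4 sums per genotype that reuse the libraries above. This takes a number to mark the same source at both amounts, which the labels do not state. Of 6 members tested, 0 passed, where 0.497% of 13079 genes did, and DESeq2 also passed 0. Insig1 was the 1 member under an unadjusted p of 0.05, where 8.12% of all genes were. Its summed level was 37.6, 25.0, 39.1 and 23.4 CPM in WT and 27.7, 18.7, 28.8 and 20.7 CPM in GFAP-IL6, so that 2 of 4 GFAP-IL6 sums lay below every WT sum and the groups overlapped. The log2 fold change was -0.42 ± 0.20 (SE, edgeR, unadjusted p = 0.0445, adjusted p = 0.597), or 0.750 times the WT level with an interval from 0.567 to 0.992. Without any of 4 of the 8 sums, WT 1, WT 3, GFAP-IL6 2 or GFAP-IL6 4, the unadjusted p of Insig1 was over 0.05, with log2 fold changes of -0.28, -0.31, -0.34 and -0.31. The other estimates were -0.31 ± 0.43 for Fdps, -0.20 ± 0.17 for Fdft1, -0.17 ± 0.13 for Hmgcs1, -0.14 ± 0.16 for Sqle and -0.11 ± 0.15 for Cyp51 (log2, SE). Sqle was at 0.02 without GFAP-IL6 replicate 4. The 6 estimates lay below 0, where 51.5% of all genes did.

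Markers of other tissue and cell types moved with genotype in the same sums. The 6 microglia markers added up to 176 to 202 CPM in WT and 221 to 329 CPM in GFAP-IL6, and Aif1 passed the test (log2 fold change 0.89 ± 0.17, SE). Of the 6, 5 had a log2 fold change above 0 and 1 below. P2ry12 did not rise, with means of 62.4 ± 5.89 CPM in WT and 58.0 ± 16.7 CPM in GFAP-IL6 (SD, n = 4). The 4 endothelial markers added up to 51.3 to 61.3 CPM in WT and 63.9 to 104 CPM in GFAP-IL6, and 1 of them, Flt1, passed. The 5 striatum markers, which mark tissue under the cortex, added up to 113 to 181 CPM in WT and 77.9 to 108 CPM in GFAP-IL6, with Ppp1r1b passing as lower and Drd2 at 0 in both genotypes. The 4 choroid plexus markers ran from 51.1 to 3193 CPM in WT and from 43.5 to 326 CPM in GFAP-IL6. The 8 oligodendrocyte markers overlapped, at 5338 to 7520 CPM in WT and 4196 to 7801 CPM in GFAP-IL6, and 0 of 8 passed. The 6 astrocyte markers also overlapped, at 2704 to 3303 CPM in WT and 3002 to 3667 CPM in GFAP-IL6, with 0 of 6 passing, and so did the 6 neuron markers, at 5835 to 6602 CPM and 5635 to 6204 CPM, with 0 of 6 passing. Their part in the values of the sterol genes was not tested.

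The rest of the route was read in the same sums. Of 15 other sterol synthesis enzymes, 0 passed, and 10 lay below 0, with a median log2 fold change of -0.11 over the 15, where the median over all genes was -0.01. Nsdhl, a sterol dehydrogenase that acts after Cyp51, was the 1 enzyme of the 15 under an unadjusted p of 0.05, where 8.12% of all genes were. Its summed level was 49.1, 38.0, 48.6 and 32.9 CPM in WT and 37.9, 22.9, 38.1 and 21.7 CPM in GFAP-IL6, with replicates 1 and 3 above 2 and 4 in both genotypes and the genotypes overlapping. The log2 fold change of Nsdhl was -0.52 ± 0.19 (SE, edgeR, unadjusted p = 0.0132, adjusted p = 0.454). Lbr, a sterol reductase that also anchors chromatin at the nuclear envelope, had a log2 fold change of 0.46 ± 0.23 in the sums (edgeR adjusted p = 0.618), with 0.96 ± 0.27 at 50 ng and 0.07 ± 0.35 at 10 ng (SE).

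The SREBP machinery had 0 of 6 genes passing, with log2 fold changes from -0.15 for the factor Srebf2 itself to 0.35 for Mbtps1, a protease that cleaves it. Mbtps2, the other protease, had 0.30 ± 0.20 (SE). Of 8 genes of uptake and intracellular transport, 0 passed. Npc2, which carries cholesterol out of lysosomes, had 0.27 ± 0.17 (SE).

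The 1 gene of these lists that passed was Ch25h, which encodes the hydroxylase that makes the oxysterol 25-hydroxycholesterol, a signal that holds SREBP processing back and that immune cells release. Its summed counts were 5, 3, 7 and 10 in WT and 36, 10, 51 and 24 in GFAP-IL6. In CPM these were 0.590, 1.05, 0.927 and 0.627 in WT and 4.79, 4.68, 5.44 and 1.56 in GFAP-IL6. The log2 fold change was 2.35 ± 0.53 (SE, edgeR adjusted p = 0.0281), or 5.10 times the WT level with an interval from 2.41 to 10.8. The WT level in this ratio rests on 3 to 10 counts per sum. The WT sums were too low for the expression filter, so Ch25h entered the test through the GFAP-IL6 sums alone, the group where it was high. Ch25h was not tested at 50 or 10 ng alone because of low counts. Without 1 of the sums, its edgeR adjusted p lay between 0.00490 and 0.155. It was over 0.05 for 6 of the 8 sums left out, namely WT 1, 3 and 4 and GFAP-IL6 1, 2 and 3. Aif1 and the summed microglia markers were also higher in the GFAP-IL6 sums. Which cells held Ch25h, and its part in the values of the sterol genes, were not tested. Of the other genes of efflux, storage and oxysterols, 0 of 9 passed, including Soat1, which esterifies cholesterol for storage, at 0.35 ± 0.19 (SE), and Apoe at 0.09 ± 0.16. Of 7 genes of fatty acid synthesis, 0 passed, with Scd1 at 0.31 ± 0.19 and Scd2 at 0.19 ± 0.14 (SE), both desaturases.

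**Figure D3:**
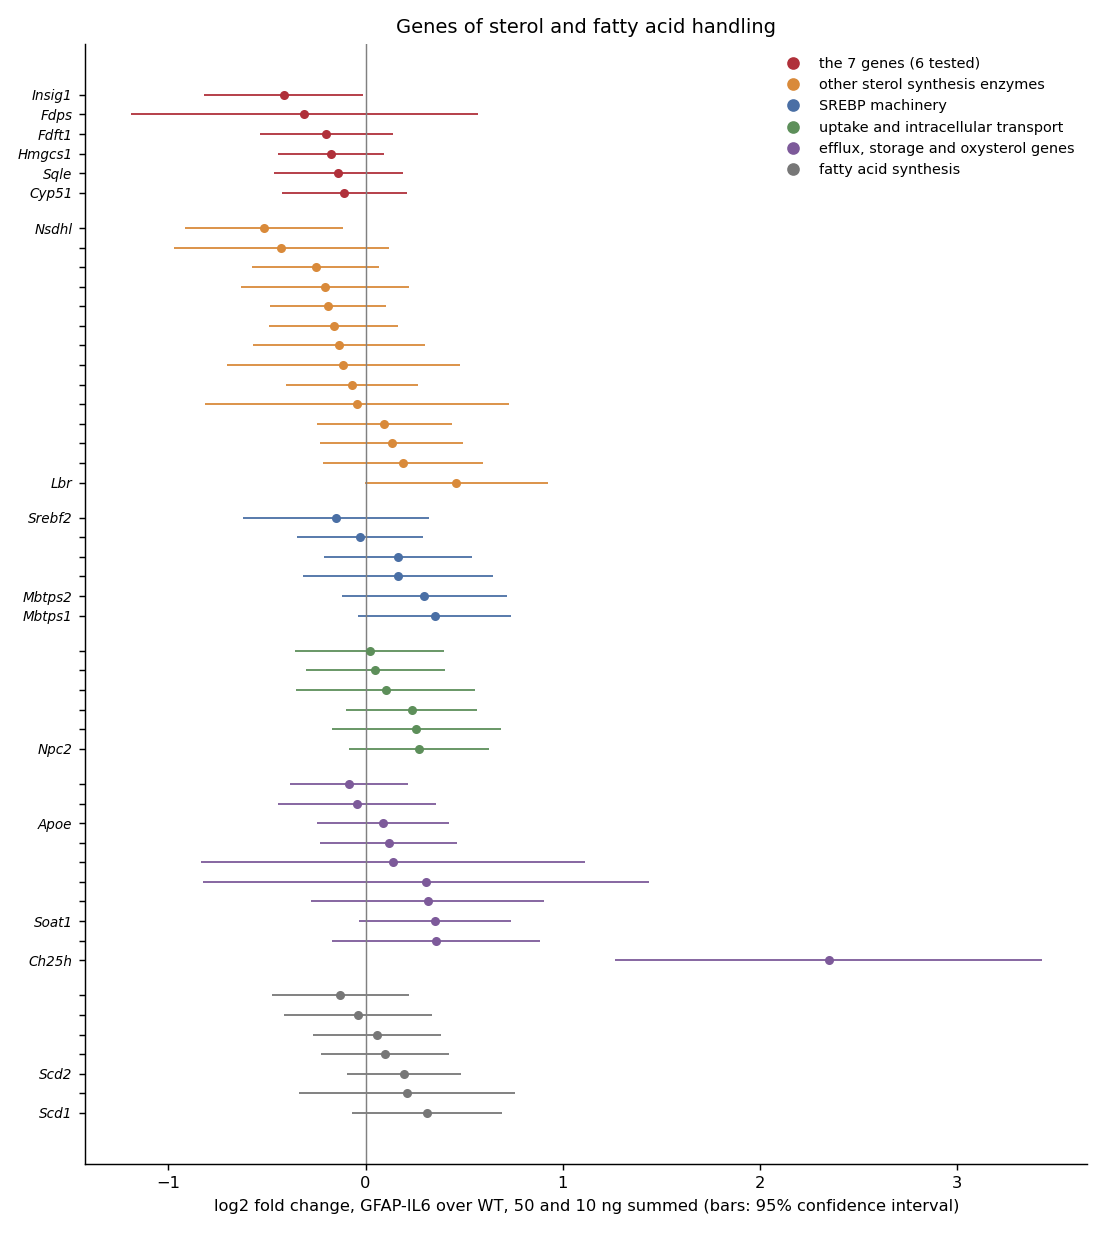
Log2 fold change of GFAP-IL6 over WT in the 50 and 10 ng sums (horizontal) with 95% confidence intervals, for tested genes of the 6 lists (vertical, coloured by list, with the name given for genes described in the text). Ch25h stands apart on the right at 2.35, and the intervals of the plotted genes other than Ch25h, Nsdhl and Insig1 cover 0.

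With 1 ng, 5 of the 7 genes had enough counts to be tested and 0 passed, where 0.0323% of 9276 genes did, and 1 was under 0.05 unadjusted, where 3.59% of genes were. That gene was Sqle. Its level was 89.7, 156, 73.1 and 78.1 CPM in WT and 31.0, 15.3, 75.8 and 58.9 CPM in GFAP-IL6, where the highest WT and the lowest GFAP-IL6 value both came from replicate 2, with 57 and 4 counts. Of the GFAP-IL6 libraries, 3 lay below every WT library, and the groups overlapped by the remaining one. Its log2 fold change was -1.05 ± 0.41 (SE, edgeR, unadjusted p = 0.0181, adjusted p = 0.997), against -0.06 at 10 ng and -0.18 at 50 ng. Since the libraries labelled replicate 3 at 1 ng held Il6 in WT and none in GFAP-IL6, the directions at 1 ng rest on labels that Il6 did not follow. Without both of these libraries, a fit added after seeing the data, 0 of 5 members and 2 of 9310 genes passed at 1 ng. Sqle had -1.48 ± 0.48 in that fit (SE, edgeR, unadjusted p = 0.00547, adjusted p = 0.997), where 325 of the 9310 genes were under 0.05 unadjusted. Without GFAP-IL6 replicate 2, which had no Il6 count either, Sqle had -0.84 ± 0.39 (SE, edgeR, unadjusted p = 0.0416). With 0.5 ng, 0 of 5 passed, where 0.0117% of 8571 genes did, and 0 were under 0.05 unadjusted, where 2.87% of genes were. Cyp51 had the lowest estimate there, at 112, 49.8, 28.6 and 103 CPM in WT and 34.0, 16.9, 30.3 and 49.2 CPM in GFAP-IL6. Its groups overlapped, and its log2 fold change was -1.18 ± 0.63 (SE, edgeR, unadjusted p = 0.0762). DESeq2 passed 0 members at 1 and at 0.5 ng. Of 5 estimates, 5 lay below 0 at 1 ng, where 50.4% of all genes did, and 4 at 0.5 ng, where 50.8% did, Fdft1 being the exception at 0.26 ± 0.74 (log2, SE). Whether the genotype difference changed with the amount of RNA was tested as an interaction in all 32 libraries, where 0 of 6 members passed in edgeR or DESeq2 and 0.0904% of 12164 genes did in edgeR. Unadjusted, 0 of 6 were under 0.05, where 8.32% of genes were. The unadjusted p of the members in that test ran from 0.196 for Cyp51 to 0.979 for Fdps. Without both 1 ng libraries of replicate 3, 0 of 6 members passed as well, where 15 of 12695 genes did.

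The comparison of amounts asked whether the measured level of a gene depends on how much RNA entered the reaction, and here both genotypes were pooled with genotype as a covariate. All 3 comparisons share the 50 ng libraries. From 50 to 10 ng, 0 of 6 members passed, where 0% of 12599 genes did and 4.36% had an unadjusted p under 0.05, and 0 of 6 members did. With the replicate number as a block, 155 of 12599 genes and 0 of 6 members passed. Under 0.05 unadjusted were 1283 of the 12599 genes and 2 of 6 members, Hmgcs1 at 0.17 and Sqle at -0.19 on the log2 scale (edgeR adjusted p = 0.238 and 0.473). At 1 ng against 50 ng, 0 of 5 passed, where 1.14% of 11290 genes did, and 0 of 5 were under 0.05 unadjusted, where 11.2% of genes were. Without both 1 ng libraries of replicate 3, 0 of 6 members passed, where 178 of 11941 genes did. At 0.5 ng against 50 ng, 0 of 6 passed, where 1.68% of 11406 genes did, and 1 of 6 was under 0.05 unadjusted, where 11.7% were. DESeq2 passed 0 members in each of these comparisons. Below 0 lay 3 of 6 members at 10 ng, 2 of 5 at 1 ng and 2 of 6 at 0.5 ng, where 49.1%, 51.1% and 55% of all genes did. Over the 8 libraries of each amount, the mean level of Hmgcs1 was 217 ± 13.7 CPM with 50 ng and 241 ± 33.0 CPM with 10 ng (SD, n = 8). With 1 ng it was 242 ± 82.7 CPM and with 0.5 ng 197 ± 103 CPM, and no neighbours in the order of these levels differed beyond their spread. The means of Fdft1 were 32.6, 37.0, 37.4 and 33.8 CPM and those of Cyp51 were 48.7, 54.2, 48.1 and 53.0 CPM from 50 to 0.5 ng.

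Sqle was the member under 0.05 at 0.5 ng. Over the 8 libraries it ran from 57.9 to 86.3 CPM with a median of 74.6 CPM at 50 ng, and from 19.1 to 82.4 CPM with a median of 52.0 CPM at 0.5 ng, so the amounts overlapped. Relative to 50 ng, the log2 fold change was -0.62 ± 0.29 (SE, edgeR, unadjusted p = 0.0413, adjusted p = 0.394). At 1 ng it was -0.05 ± 0.23, so the level did not fall in step with the amount. Blood genes, namely those of haemoglobin with Alas2, differed in sum between amounts but did not follow them in order. From 50 to 0.5 ng, the summed blood genes had means of 412, 492, 804 and 560 CPM in WT. In GFAP-IL6 the means were 392, 482, 813 and 556 CPM. Of the blood genes tested, 4 of 4 passed as higher at 1 ng and 1 of 4 at 0.5 ng, and their part in the values of Sqle was not tested.

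The spread between libraries was wider at the low amounts, where total counts were lower too, and their parts were not told apart beyond the counting error given here. Within a genotype, the coefficient of variation of Hmgcs1 went through 5.35%, 13.3% and 35.9% to 54.7% from the highest to the lowest amount. Counting error alone would have given 4.20%, 3.76%, 7.21% and 7.59%. At 50 ng Hmgcs1 thus varied hardly more than counting error, and at 0.5 ng its spread was 7.20 times that. Fdft1 was the steadiest of the 5 genes with a mean of at least 10 CPM at the low amounts, with 30.0% at 1 ng and 26.1% at 0.5 ng, where counting error gave 18.3% at each. Over 8749 genes with a mean of at least 10 CPM, the median spread was 20.7%, 20.8%, 45.8% and 63.8% from 50 to 0.5 ng. Insig1 lay above that median at 50, 1 and 0.5 ng, with 31.3%, 86.7% and 81.1%, Cyp51 lay above it at 1 ng with 65.0%, and Sqle lay above it at 10 ng with 23.9% and at 1 ng with 46.0%. Of the 56 values of the 7 genes at each amount, 2 were 0 with 50 ng and again with 10 ng, and 8 were 0 with 1 ng and again with 0.5 ng. These zeros fell in Idi1, Fdps and, once, Insig1.

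**Figure D4:**
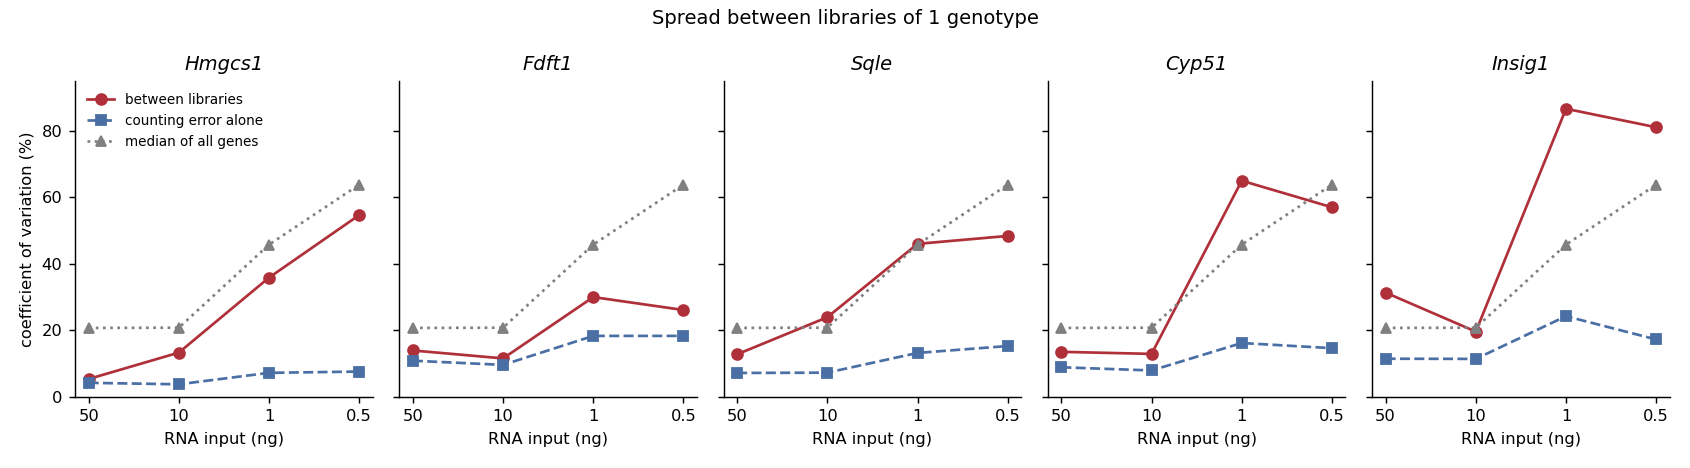
Coefficient of variation in percent (vertical) between libraries of the same genotype, for the 5 genes with a mean of at least 10 CPM, against the amount of RNA in ng (horizontal); red circles are the measured spread, blue squares the spread that counting error alone gives, and grey triangles the median over 8749 genes. Fdft1 stays within 1.64 times its counting error, while Hmgcs1 goes from 5.35% at 50 ng to 54.7% at 0.5 ng.

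Whether the members varied together was read from the 16 libraries at 50 and 10 ng, after each group's mean was taken off. These libraries come in same-numbered pairs, share their group means and differ in depth, so they are no independent points and the correlations are descriptions. With the mean of the other 4 members, Pearson's r was 0.55 for Sqle, 0.54 for Insig1, 0.44 for Fdft1, 0.09 for Hmgcs1 and 0.03 for Cyp51, and Spearman's rho was 0.59, 0.61, 0.44, 0.09 and 0.03. Among all 8735 genes compared with the mean of the 5 members, the median r was 0.04 and 24.6% were above 0.5, and 2 of the 5 members were. The 2 members with the weakest relation, Hmgcs1 and Cyp51, changed sign when libraries of some replicates were left out. Insig1 varied most, from -0.49 in WT replicate 4 at 50 ng to 0.45 in GFAP-IL6 replicate 1 at 50 ng on the log2 scale.

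The mean of the members also moved with the share of counts from mitochondrially encoded genes, which was 11.6% to 18.9% in these libraries. Pearson's r with this share was -0.72 for the mean, -0.69 for Insig1, -0.60 for Sqle, -0.49 for Fdft1, -0.22 for Hmgcs1 and -0.02 for Cyp51 over the 16 libraries, a measure chosen after the values had been seen. With the logarithm of the total count, r was 0.05 for the mean of the members. The same correlation over all genes is not given here, so the relation cannot be called particular to the members. The part of the mitochondrial share in the members' values was not tested.

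The 10 genes whose pattern was most like the mean of the members were Mrps34, Ppp1r14b, Rtcb, Bub3, Ctsc, Atp6v1b2, Pkm, Nedd8, Creb3 and Fam213b, with r from 0.91 for Fam213b to 0.94 for Mrps34 over the 16 libraries. Depending on the libraries left out, 3 to 9 of these 10 were named again. Nsdhl had r = 0.91 and stood at rank 15 of 8735. Of 13 other sterol synthesis enzymes with enough counts, 6 were above 0.5, or 46.2%, and the median was 0.47. This share was not particular to the route. Above 0.5 were also 3 of 4 blood genes, 3 of 6 astrocyte markers and 3 of 8 oligodendrocyte markers. Among neuron markers 1 of 6 was, and among genes of fatty acid synthesis 0 of 7. The factor Srebf2 lay at the other end with r = -0.72.

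**Figure D5:**
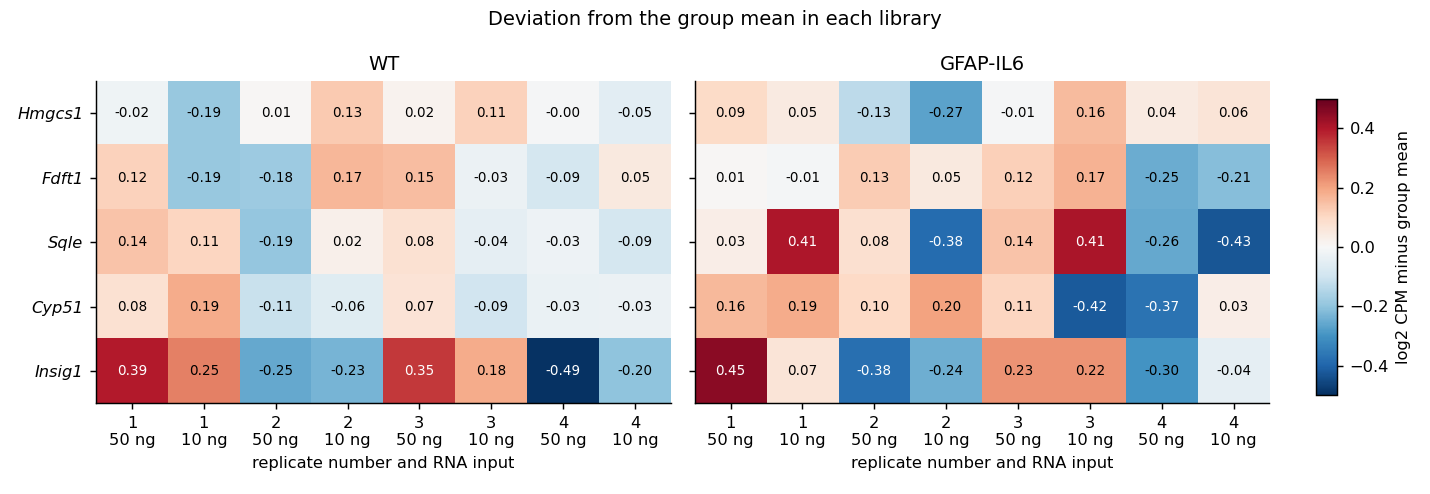
Log2 CPM of 5 genes minus the mean of the group, for each library at 50 and 10 ng (columns, by replicate number and amount; WT left, GFAP-IL6 right); red is above and blue below the group mean, with the value printed in each cell. Insig1 is above its group mean in replicates 1 and 3 and below it in replicates 2 and 4 at both amounts in both genotypes, while Hmgcs1 in WT stays within 0.19 of it.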

How the data were processed

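Frontal cortex RNA of WT and GFAP-IL6 mice was read by 3'Pool-seq in 32 libraries. The authors sorted the reads by sample index, removed poly(A) tails, used STAR 2.4 (named in the submitters' processing notes) for alignment and featureCounts for counting of uniquely placed reads on GENCODE genes, and the deposited values are raw counts for 33000 genes. Whether strand was used is not given in the sources used here. Total counts ran from 261378 to 9840302 per library. Floors of 3 counts cover counting error only, whereas the intervals of fold changes include the spread between libraries.

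Groups came from the labels. Levels are CPM on library totals. Genotypes were compared at each amount and in sums of 50 and 10 ng, amounts were compared with 50 ng with genotype as a covariate, and the interaction used 32 libraries. All used edgeR 4.0.16 (R 4.3.3) with TMM scaling, filterByExpr and the quasi-likelihood test, with Benjamini-Hochberg adjustment over all genes tested and a threshold of 0.05, after testing on simulated data. Alternatives were DESeq2 1.42.0 and its size factors, no expression filter, a replicate block, other sets of libraries, limma 3.58.1 voom weights and leaving out each replicate. Correlations used log2 CPM with a prior count of 2 in genes of at least 10 CPM, and figures were drawn with matplotlib 3.10.9. The genes named were all members, from each related list the genes that passed a genotype test at 50 or 10 ng or in the sums and the 2 with the smallest p in the sums, and the 10 most alike. Srebf2 and Apoe fall outside that rule and were added for their roles after their values were seen. Some genes of the related lists are counted in the totals but not reported here by name. Of 33000 identifiers, 32593 matched GENCODE. Replicates were compared in 48 pairs, none of which agreed within sampling noise. The members and lists were chosen with earlier results of these data known.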

Additional observations from a re-analysis of the deposited data

Results flagged for a closer look

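Each group of 4 libraries was searched for a library far from the others, in 56 groups of the 7 genes, and 5 groups held one. Chance gives about 1 in 20 for continuous, normally distributed values, a rate that does not hold for genes with few counts. Idi1 accounted for 3 of the 5 groups, each resting on 2 to 4 counts where the other libraries of the group had 0. Such a group is flagged whatever its count. These were GFAP-IL6 replicate 4 at 1 ng with 1.07 CPM, WT replicate 2 at 0.5 ng with 4.33 CPM and GFAP-IL6 replicate 3 at 0.5 ng with 2.09 CPM. Fdps in WT replicate 4 at 1 ng stood at 7.77 CPM from 19 counts, while the others lay between 0 and 1.31 CPM. Cyp51 in GFAP-IL6 replicate 4 at 50 ng stood at 36.2 CPM from 202 counts, while the others lay between 51.3 and 54.0 CPM, and that library had a mitochondrial share of 18.9%, the highest at 50 ng.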

How the results depend on the processing

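None of the members tested passed the adjusted threshold in any of 120 alternative fits of the 9 comparisons, of which 9, those without the expression filter, tested Idi1. In 37 fits a member had an unadjusted p under 0.05. These fits reuse the same libraries, and 2.87% to 11.7% of all genes were under 0.05 in the main fits of the 9 comparisons. In the fit of all 32 libraries, 57 of 12164 genes were for genotype at 50 ng and 2531 of 12164 at 0.5 ng. The 37 fits were not set against a rate for all genes. The count of all genes passing depended on the fit. With the DESeq2 test it went from 40 to 67 for genotype at 10 ng, from 3 to 11 at 1 ng, from 1 to 16 at 0.5 ng, from 65 to 101 in the sums, from 0 to 20, 129 to 391 and 192 to 493 for 10, 1 and 0.5 ng against 50 ng, and from 11 to 225 for the interaction. With no filter on low counts it was 93, 64, 11 and 5 for genotype from 50 to 0.5 ng, 154 in the sums, 2, 266 and 833 for the amounts, and 107 for the interaction. One fit of all 32 libraries gave 3, 4, 12 and 655 for genotype from 50 to 0.5 ng, where 33, 40, 3 and 1 were found by amount, and 818 for 0.5 ng against 50 ng. With voom weights the interaction had 5. The cause was not tested.

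Same-numbered libraries correlated above 0.1 in their deviations in 7 of 8 pairs of 50 and 10 ng (0.041 to 0.692), and between genotypes in 3 of 4 pairs at 50 ng (0.068 to 0.318) and at 10 ng (0.084 to 0.255) and in 0 of 4 at 1 and at 0.5 ng. The main tests did not take the numbers as pairs, which the labels do not state. The comparisons of amounts thus counted same-numbered libraries as separate. The sums are the exception, since they joined the 50 and 10 ng libraries of a number. Yet 7 of 8 libraries at 50 ng correlated best with their own number at 10 ng. At 50 and at 10 ng, 4 of 4 WT libraries did so with their own number in GFAP-IL6. This is a hint from the data and not the design. With the replicate block, 77 genes passed at 10 ng, 7 at 1 ng, 197 in the sums, 155 and 224 for 10 and 1 ng against 50 ng, and 1 in the interaction, and the log2 fold change of Insig1 at 0.5 ng was 0.39. In the sums, the block gave Insig1 -0.41 (edgeR, unadjusted p = 0.0197, adjusted p = 0.274) and Nsdhl -0.54 (unadjusted p = 8.96e-04, adjusted p = 0.0549). In that fit 1739 of 13079 genes had an unadjusted p under 0.05. Cyp51 with the block was -0.11 at 1 ng and -0.024 at 0.5 ng against 50 ng. At 1 ng it was also -0.024 without the filter and -0.0093 in the fit of all libraries, in which Fdps at 10 ng against 50 ng was 0.061.

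Leaving out each replicate gave 11 to 78 genes at 50 ng, 1 to 2 at 0.5 ng, 0 to 20, 71 to 206 and 107 to 218 for 10, 1 and 0.5 ng against 50 ng, and 0 to 9 in the interaction. The log2 fold changes that crossed 0 were those of Fdps (-0.45 to 0.047) and Cyp51 (-0.12 to 0.085) at 50 ng, Sqle at 10 ng (-0.20 to 0.10) and in the sums (-0.21 to 0.016), and Insig1 at 1 ng (-1.12 to 0.29) and 0.5 ng (-0.45 to 0.91). Against 50 ng they were those of Fdps at 10 ng (-0.20 to 0.10), Sqle (-0.27 to 0.083) and Cyp51 (-0.24 to 0.13) at 1 ng, and Hmgcs1 (-0.19 to 0.047) and Cyp51 (-0.072 to 0.28) at 0.5 ng. Ch25h lost its call without WT replicate 1, 3 or 4 or GFAP-IL6 replicate 1, 2 or 3, and Npc2 gained one without GFAP-IL6 replicate 4 (0.49, edgeR adjusted p = 0.0466). The correlations with the other members, whose alternatives were chosen after seeing the data, ran from -0.26 to 0.58 for Cyp51 and from -0.042 to 0.29 for Hmgcs1. Of the top 10 most alike genes, 8 were kept with DESeq2 size factors. Idi1 had 0 to 6 counts in every library.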
